A study of Homo sapiens with 18 samples.

Results

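Aminoacyl-tRNA synthetases are the enzymes that join each amino acid to its own transfer RNA (tRNA), the step that gives the genetic code its meaning. The family was taken as every gene whose symbol is a 1-letter amino acid code followed by ARS1 or ARS2, together with EPRS1, FARSA and FARSB, and 35 genes of the 18417 measured met this rule. Of these, 19 encode cytosolic enzymes, among them GARS1 and KARS1, whose products also serve mitochondria, and 16 encode enzymes of mitochondria alone. All 35 members matched the RefSeq gene table by gene ID, and VARS1 and VARS2 were the only 2 with more than 1 probe set, the probe set of highest mean being used.

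Cells of the Raji line, an established Epstein-Barr virus-positive B-cell line from a human Burkitt lymphoma, were grown in RPMI with 10% serum. Every group received sodium n-butyrate at 3 mM and a phorbol ester at 0.05 µM, which the labels give as the inducing agents, and maslinic acid, a plant triterpene, at 19 µM. Harvests at 0, 4, 8, 12, 24 and 48 h gave 3 biological replicates each and 18 Affymetrix arrays, 1 per sample. The labels give the 0 h arrays the same treatment, and arrays of cells without the compounds were not analysed here, so the effect of the compounds and that of time in culture cannot be told apart.

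Human cells keep separate nuclear genes for most cytosolic and mitochondrial synthetases, and several cytosolic enzymes sit in a multisynthetase complex held together by scaffold proteins. Many cytosolic synthetase genes are known targets of ATF4, the transcription factor made when kinases of the initiation factor eIF2 report amino acid shortage or other stress. WARS1, the cytosolic tryptophanyl enzyme, is known in addition as an interferon-induced gene, and interferon also induces IDO1, an enzyme that breaks tryptophan down.

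Values are log2 intensities as deposited, so a difference of 1 is a doubling. Differences were tested with limma over all 18417 genes, and a gene was called at a Benjamini-Hochberg adjusted p under 0.05. The 18 array medians lay between 4.03 and 4.25. Replicate 2 of 8 h had the narrowest interquartile range, 2.37, against 2.74 to 3.16 on the other 17 arrays. Of 6 B cell markers, 4 (MS4A1, CD79A, PAX5 and CD22) lay above the array median on all arrays, against 0 of 5 T cell, 0 of 4 monocyte, 0 of 4 epithelial, 0 of 2 erythroid and 1 of 4 fibroblast markers (COL1A1). Nothing in the labels says more of how the replicates were obtained, so the p-values measure the spread between these samples.

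Most synthetase genes lay below their 0 h level at each later time, and most of the falls that passed the test came at 48 h. No synthetase gene was called at 4 h against 0 h, where 1.75% of all genes were called. At 8 h 1 rose and 3 fell, against 3.5% of all genes higher and 3.18% lower. The same counts, 1 and 3, were found at 12 h (3.91% of all genes higher and 4.14% lower) and at 24 h (6.74% higher and 5.74% lower). At 48 h 1 gene rose and 10 fell, which is 2.86% and 28.6% of the family, against 6.92% and 8.11% of all genes. That split was 4 higher and 6 lower with quantile normalization and 0 higher and 14 lower with each array's median subtracted, and the 12 h split was 0 and 4 after that subtraction. Without replicate 1 of 48 h the 48 h split was 0 higher and 6 lower, and without replicate 1 or replicate 2 of 0 h it was 0 and 7. The family mean on replicates 1, 2 and 3 was 6.99, 7.34 and 7.40 at 48 h, against 7.42, 7.51 and 7.66 at 0 h. At 4, 8, 12, 24 and 48 h the 35 genes had a median difference from 0 h of -0.21, -0.35, -0.27, -0.22 and -0.33, while that of all genes stayed between -0.02 and 0.05. At 48 h the 3 arrays lay wholly above those of 0 h in 4 members and wholly below them in 15, against 15.2% and 13.2% of all genes.

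**Figure D1:**
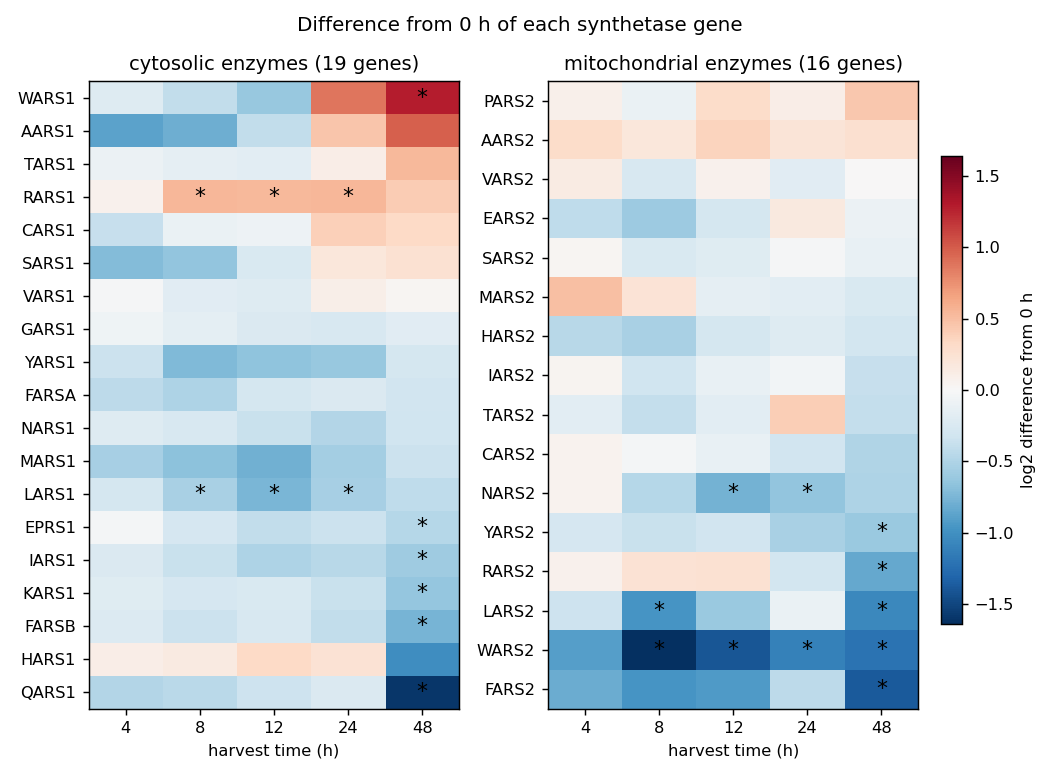
Colour gives the log2 difference of each synthetase gene from 0 h (means of 3 arrays each) at 4, 8, 12, 24 and 48 h, with red higher than 0 h, blue lower, and a star where the limma test called the gene. Stars of WARS2 run from 8 to 48 h, those of RARS1 and LARS1 from 8 to 24 h with opposite colours, and the 48 h column holds 10 blue stars and a single red one at WARS1.

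An F test over the 5 differences from 0 h called 12 of the 35 genes, 34.3% of the family, against 16.4% of all genes. They were the cytosolic AARS1, FARSB, LARS1, QARS1, RARS1 and WARS1 and the mitochondrial EARS2, LARS2, MARS2, NARS2, RARS2 and WARS2. AARS1, EARS2 and MARS2 passed this test without being called at any single time. Between consecutive harvests from 4 h onward, 0 synthetase genes were called in limma in any of the 4 comparisons, where 0.223% (8 h against 4 h), 0.0% (12 h against 8 h), 1.37% (24 h against 12 h) and 0.402% (48 h against 24 h) of all genes were. At an unadjusted limma p under 0.05 the same 4 comparisons held 5, 2, 6 and 8 of the 35 synthetase genes. Of all 18417 genes they held 1580, 1221, 2039 and 1745.

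The genes for the pair of tryptophanyl enzymes moved apart. WARS1, which charges tryptophanyl-tRNA in the cytosol, rose 2.43-fold at 48 h, and its mitochondrial counterpart WARS2 fell at every time from 8 h on. It was the only one of 13 cytosolic and mitochondrial pairs in which both genes were called with opposite signs at any time.

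WARS1 (chromosome 14, 100333790 to 100376327, GRCh38.p14) measured 8.35, 8.69 and 9.48 at 0 h, 8.20, 8.32 and 9.39 at 4 h, and 8.35, 8.20 and 8.75 at 8 h. The later arrays gave 7.94, 8.42 and 8.30 at 12 h, 10.30, 10.13 and 8.73 at 24 h, and 10.26, 10.55 and 9.56 at 48 h. All 48 h arrays lay above all 0 h arrays, though replicate 3 of 48 h exceeded replicate 3 of 0 h by little, and at 24 h replicate 3 stayed within the 0 h range while the other two stood above it. The 48 h mean was 10.12 ± 0.51, against 8.84 ± 0.58 at 0 h (SD, n = 3 each), a difference of 1.28 (SE 0.40, limma adjusted p = 0.0346). That call was lost without replicate 1 (adjusted p = 0.140) or 2 (0.111) of 0 h, without replicate 1 (0.101) or 2 (0.139) of 48 h, and also under median centring of the arrays (0.0524). At 24 h the difference was 0.88 (adjusted p = 0.187), and without replicate 3 of 24 h it was 1.38 (adjusted p = 0.0207).

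Of 15 measured interferon response genes, 12 rose at 24 h and 13 at 48 h, with 0 falling at either time. Of all genes, 6.74% and 6.92% were called higher at these times, and 5.74% and 8.11% lower. MX1 and IRF7 were called at neither time. IFIT1, which encodes an antiviral RNA-binding protein, measured 10.29, 10.51 and 9.57 at 48 h, against 3.14, 3.86 and 2.72 at 0 h. The mean of the 15 genes was 8.21, 7.93 and 6.16 on the 3 arrays of 24 h and 8.23, 8.40 and 7.10 on those of 48 h, against 4.22, 4.24 and 4.17 at 0 h. Replicate 3 was thus the lowest array for this list at both late times, as it was for WARS1. It was also the lowest at both times for the synthetase genes AARS1 and TARS1, which are not on this list, but not for SARS1. IDO1 measured 7.22, 6.75 and 2.97 at 48 h, against 2.60, 2.90 and 2.83 at 0 h, a difference of 2.88 (limma adjusted p = 0.00741) carried by replicates 1 and 2. Whether these genes and WARS1 share a cause was not tested.

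The promoter of WARS1 is shown because the stretch before its more downstream start holds both interferon-related motifs that were searched. RefSeq (GRCh38.p14) lists 2 starts for the gene, and the 250 bases before the upstream one, chr14:100376328-100376577, hold none of the motifs searched. The 250 bases before the more downstream one, chr14:100375348-100375597 on the minus strand, are printed 5′ to 3′ as the gene reads. Capitals mark a STAT site (TTCNNNGAA), whose first letter lies 142 bases before the start, and an interferon-stimulated response element (GAAA, any 2 bases, GAAA), 55 bases before it.
WARS1: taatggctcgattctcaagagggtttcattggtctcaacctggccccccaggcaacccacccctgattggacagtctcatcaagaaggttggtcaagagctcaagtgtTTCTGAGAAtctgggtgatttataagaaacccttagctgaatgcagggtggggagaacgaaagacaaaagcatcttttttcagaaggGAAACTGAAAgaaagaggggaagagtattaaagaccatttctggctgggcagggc

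Promoter windows ran from 250 bases before to 50 bases after each start and were searched on both strands, and 30 of the 35 members had one. The response element was found in WARS1 and EARS2 only among those 30, and in 4.38% of 27305 genes. The STAT site was found in CARS1, PARS2, TARS1, WARS1 and WARS2, and in 9.38% of genes. A match describes letters in the window and not a bound site.

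WARS2 (chromosome 1, 119031216 to 119140672) measured 6.75, 6.50 and 7.03 at 0 h, 5.78, 5.88 and 5.93 at 4 h, and 5.82, 4.49 and 5.05 at 8 h. It then gave 5.35, 5.03 and 5.69 at 12 h, 5.77, 5.95 and 5.22 at 24 h, and 5.37, 5.65 and 5.64 at 48 h. Every array from 4 h on lay below every 0 h array. The difference from 0 h was -1.64 (SE 0.27, limma adjusted p = 0.00104) at 8 h, a 3.12-fold lower level. At 12, 24 and 48 h it was -1.41, -1.11 and -1.21 (limma adjusted p = 0.00268, 0.00933 and 0.00414), and the 4 h difference of -0.90 did not pass (adjusted p = 0.111). Replicate 2 of 8 h, the array of narrow range, gave the lowest value, and without it the 8 h difference was -1.33 (adjusted p = 0.00488). The 24 h call did not hold when replicate 3 of that time was left out (adjusted p = 0.0533).

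**Figure D2:**
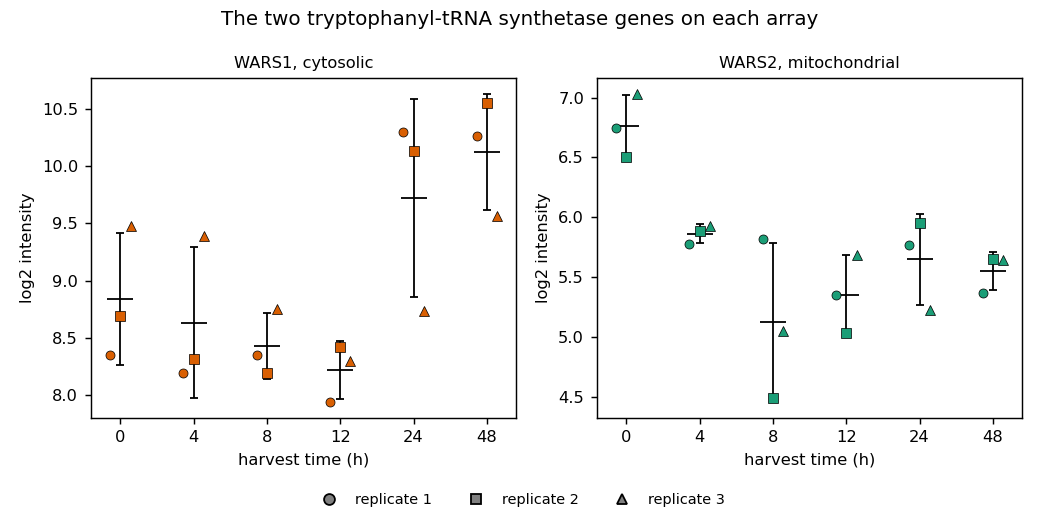
Log2 intensity of WARS1 (left) and WARS2 (right) on each array by harvest time, with symbols for replicates 1, 2 and 3 and black marks for the mean ± SD of 3 arrays; the vertical scales differ and do not start at 0. The 48 h arrays of WARS1 sit between 9.56 and 10.55, above the 0 h arrays at 8.35 to 9.48, and the WARS2 arrays from 4 h on sit at or below 5.95, under the 0 h arrays at 6.50 to 7.03.

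Among the 7 measured synthetases of the multisynthetase complex, 4 fell at 48 h, the glutamyl-prolyl enzyme EPRS1, the isoleucyl IARS1, the lysyl KARS1 and the glutaminyl QARS1, against 8.11% of all genes. LARS1 fell earlier, RARS1 went the other way, and the methionyl enzyme MARS1 was called at no time. The median difference at 48 h of these 7 genes was -0.47, against -0.08 for the 12 cytosolic synthetases outside the complex, where WARS1 rose and FARSB fell. This difference between the groups was not tested.

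QARS1 had the largest fall of the cytosolic enzymes, 3.02-fold at 48 h. It measured 6.45, 7.13 and 7.88 at 48 h, against 8.41, 8.79 and 9.05 at 0 h, a difference of -1.60 (SE 0.36, limma adjusted p = 0.00496). All 48 h arrays lay below all 0 h arrays, with means of 7.15 ± 0.72 and 8.75 ± 0.32 (SD, n = 3 each). From 4 to 24 h its mean stayed between 8.27 and 8.51 and no call was made. KARS1 measured 8.11, 8.71 and 8.62 at 48 h, against 9.05, 9.29 and 9.01 at 0 h (difference -0.64, limma adjusted p = 0.00682), again without overlap, and the call was lost on the arrays of those 2 times alone (adjusted p = 0.0765). IARS1 fell by 0.58 (limma adjusted p = 0.0147) and EPRS1 by 0.47 (limma adjusted p = 0.0453) at 48 h. The IARS1 call did not hold with replicate 3 of 0 h left out (adjusted p = 0.0561) or without replicate 1 (0.0951) or 2 (0.0545) of 48 h. The EPRS1 call was lost without any single array of 0 h and without replicate 1 or 3 of 48 h (highest adjusted p = 0.176). Quantile normalization (0.0689 for IARS1, 0.301 for EPRS1) and the arrays of the 2 times alone (0.124 and 0.122) also ended both calls, and array weights that of EPRS1 (0.0948).

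LARS1, the cytosolic leucyl enzyme, also known as a leucine sensor for the growth kinase mTORC1, fell at 8, 12 and 24 h and was lowest at 12 h. It measured 10.15, 10.15 and 10.57 at 0 h, 9.92, 9.84 and 10.25 at 4 h, 9.74, 9.66 and 9.86 at 8 h, 9.52, 9.57 and 9.53 at 12 h, 9.58, 9.85 and 9.80 at 24 h, and 9.74, 9.99 and 9.89 at 48 h. No array from 8 h on overlapped the 0 h arrays. At 8, 12 and 24 h the difference was -0.53, -0.75 and -0.54 (limma adjusted p = 0.0430, 0.00448 and 0.0240), and -0.41 at 48 h (adjusted p = 0.0835). The 12 h call held in all 16 alternatives run, the 8 h call was lost without any single array of either time (highest adjusted p = 0.198), and the 24 h call without replicate 3 of 0 h (0.128) or replicate 1 of 24 h (0.117). On the compared arrays alone the 8 h and 24 h calls were lost (0.183 and 0.0849), as was the 8 h call under median centring (0.0506) and the 24 h call under quantile normalization (0.0704).

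RARS1, the arginyl enzyme of the complex, was the sole synthetase gene that rose before 48 h. It measured 9.48, 9.33 and 9.10 at 0 h, 9.59, 9.29 and 9.23 at 4 h, and 10.04, 9.76 and 9.74 at 8 h. It stayed there at 12 h (9.84, 9.68 and 9.99), at 24 h (9.77, 9.93 and 9.84) and at 48 h (9.68, 9.71 and 9.76). The arrays from 8 h on all lay above those of 0 h, and the differences were 0.54, 0.53 and 0.54 at 8, 12 and 24 h (limma adjusted p = 0.0331, 0.0313 and 0.0200), with 0.41 at 48 h (adjusted p = 0.0710). All 3 calls were lost without replicate 3 of 0 h, the lowest array (adjusted p = 0.144, 0.139 and 0.0970). They were also lost at 8 and 12 h without replicate 2 of 0 h (0.0822 and 0.0745), at 8 h without replicate 1 of 8 h (0.150), at 12 h without replicate 1 (0.0958) or 3 (0.126) of 12 h, and at 24 h without replicate 2 of 24 h (0.0807). On the arrays of the compared groups alone none of the 3 was called (adjusted p = 0.172, 0.0705 and 0.0621), and median centring ended the 12 h call (0.0862).

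FARSB, the beta subunit of the cytosolic phenylalanyl enzyme, fell at 48 h. It measured 8.62, 8.72 and 9.0 at 48 h, against 9.52, 9.37 and 9.74 at 0 h, a difference of -0.76 (SE 0.15, limma adjusted p = 0.00133) that kept its call in all 16 alternatives. Its group means at 4, 8, 12 and 24 h were 9.31, 9.20, 9.28 and 9.14. Its partner FARSA, the alpha subunit of the same enzyme, measured 5.63, 6.18 and 6.78 at 48 h, against 6.35, 6.98 and 6.20 at 0 h, and was called at no time.

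AARS1, the alanyl enzyme, passed the F test (limma adjusted p = 0.0103) with its lowest means at 4 and 8 h and its highest at 48 h. It measured 8.17, 8.65 and 9.16 at 0 h, 7.19, 7.19 and 8.99 at 4 h, 7.95, 7.35 and 8.28 at 8 h, 8.20, 8.18 and 8.40 at 12 h, 9.46, 9.29 and 8.60 at 24 h, and 9.50, 9.97 and 9.46 at 48 h. The 48 h arrays all lay above those of 0 h, and the difference of 0.98 did not pass the test (limma adjusted p = 0.110). It passed under 4 of 16 alternatives, with quantile normalization (adjusted p = 0.0424), on the arrays of the compared groups alone (0.0441), with array weights (0.0431) and with the interquartile range as a covariate (0.0239).

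No mitochondrial synthetase was called higher at any time, and 5 of the 16 fell at 48 h, WARS2, FARS2, LARS2, RARS2 and YARS2. Of all genes, 6.92% were higher and 8.11% lower at 48 h. FARS2, the single-subunit phenylalanyl enzyme of mitochondria, measured 3.90, 5.09 and 4.80 at 48 h, against 5.63, 6.27 and 6.03 at 0 h. The groups did not overlap, and the difference was -1.38 (SE 0.33, limma adjusted p = 0.00699), a 2.60-fold lower level. With FARSB, this placed both a cytosolic and a mitochondrial gene for phenylalanine among those that fell at 48 h.

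LARS2, the mitochondrial leucyl enzyme, was low at 8 h and at 48 h and not at 24 h. It measured 6.83, 7.12 and 6.29 at 0 h, 6.55, 6.44 and 6.25 at 4 h, 5.80, 5.41 and 6.14 at 8 h, 6.09, 6.18 and 6.16 at 12 h, 7.10, 6.35 and 6.46 at 24 h, and 5.50, 5.98 and 5.60 at 48 h. The difference was -0.96 at 8 h (limma adjusted p = 0.0170) and -1.05 at 48 h (limma adjusted p = 0.00409), and -0.11 at 24 h (adjusted p = 0.865). The 8 h call did not hold with replicate 2 of 8 h left out (adjusted p = 0.0796) or without replicate 1 (0.0578) or 2 (0.104) of 0 h, and on the compared arrays alone (0.0954), while the 48 h call held in all 16 alternatives. At 8 h LARS1 and LARS2 were both called lower, the single one of the 13 pairs with both members called in the same direction. These pairs join symbols ending in ARS1 and ARS2, so the phenylalanyl genes FARSB and FARS2 are not among them.

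NARS2, the mitochondrial asparaginyl enzyme, was at 6.32, 6.23 and 6.41 at 0 h, 6.32, 6.48 and 6.32 at 4 h, and 5.86, 5.83 and 5.85 at 8 h. It measured 5.36, 5.61 and 5.66 at 12 h, 5.63, 6.05 and 5.36 at 24 h, and 5.44, 6.15 and 5.85 at 48 h. From 8 h on no array reached the 0 h range. The differences of -0.78 at 12 h and -0.64 at 24 h passed (limma adjusted p = 0.0126 and 0.0272), and those of -0.47 at 8 h and -0.51 at 48 h did not (0.161 and 0.0757). The 12 h call was lost without replicate 1 of 12 h (0.0708), and the 24 h call without any single array of 0 h or without replicate 1 or 3 of 24 h (highest adjusted p = 0.135), as well as on the compared arrays alone (0.0700) and with array weights (0.0710).

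RARS2, the mitochondrial arginyl enzyme, measured 8.75, 8.61 and 7.76 at 0 h, 8.73, 8.59 and 7.99 at 4 h, 8.85, 8.52 and 8.46 at 8 h, and 8.61, 8.57 and 8.71 at 12 h. The late arrays gave 7.75, 8.26 and 8.21 at 24 h and 7.33, 7.59 and 7.67 at 48 h. It fell at 48 h by 0.84 (SE 0.24, limma adjusted p = 0.0221), with replicate 3 of 0 h standing close above the 48 h arrays. The call was lost without replicate 1 (adjusted p = 0.112) or 2 (0.103) of 0 h and without replicate 1 of 48 h (0.0914), with quantile normalization (0.0675) and on the compared arrays alone (0.0744). YARS2, the mitochondrial tyrosyl enzyme, fell by 0.61 at 48 h (limma adjusted p = 0.0490), a call lost without any single array of 0 h and without replicate 1 or 2 of 48 h (highest adjusted p = 0.225), with quantile normalization (0.108), on the compared arrays alone (0.0891) and with an intensity trend in the variance prior (0.0702).

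**Figure D3:**
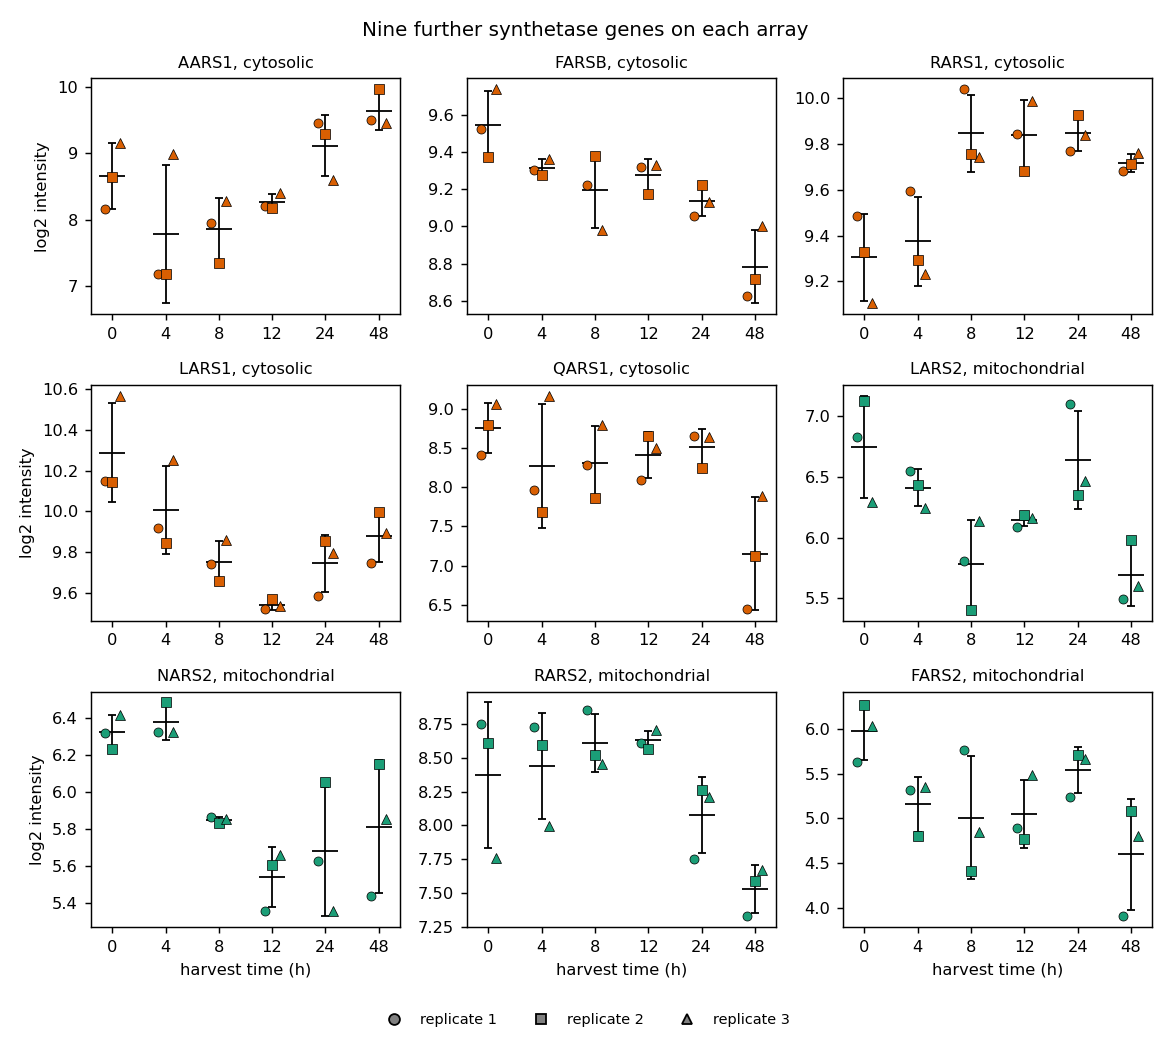
Log2 intensity of 9 synthetase genes on each array by harvest time, in orange for cytosolic and green for mitochondrial enzymes, with symbols for replicates and black marks for the mean ± SD of 3 arrays; vertical scales differ between panels and do not start at 0. QARS1 holds between 8.27 and 8.51 in its means from 4 to 24 h and drops to 7.15 at 48 h, whereas LARS1 is lowest at 12 h and RARS1 stays above its 0 h arrays from 8 h on.

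The other 2 mitochondrial genes that passed the F test did so on changes that no single time against 0 h carried. MARS2, for methionine, averaged 6.83 at 4 h and 6.08 at 48 h, against 6.33 at 0 h (F test adjusted p = 0.0256). EARS2, for glutamate, averaged 4.69 at 8 h and 5.44 at 24 h, against 5.28 at 0 h (F test adjusted p = 0.0332). The mitochondrial AARS2, CARS2, HARS2, IARS2, PARS2, SARS2, TARS2 and VARS2 passed neither test, and their differences from 0 h lay between -0.53 and 0.45 at all times. The same holds for the cytosolic CARS1, FARSA, GARS1, HARS1, MARS1, NARS1, SARS1, TARS1, VARS1 and YARS1, between -1.02 and 0.54. The lowest of these values was that of HARS1, which measured 5.43, 6.08 and 7.34 at 48 h, against 7.18, 7.58 and 7.12 at 0 h (limma adjusted p = 0.0643). Among all members, 18 class I enzymes, whose active site is built on a Rossmann fold, gave 6 falls and 1 rise at 48 h, and 16 class II enzymes gave 3 falls and 0 rises, where 8.11% of all genes fell and 6.92% rose. The difference between the classes was not tested.

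The gap between cytosolic and mitochondrial synthetases lay within its SD over arrays at 4 of the 5 times. At 4, 8, 12, 24 and 48 h the cytosolic genes had a median difference from 0 h of -0.23, -0.35, -0.29, -0.24 and -0.31. For the mitochondrial genes it was 0.04, -0.35, -0.18, -0.18 and -0.39 at the same times. Cytosolic minus mitochondrial, the gap was -0.27, 0.00, -0.11, -0.06 and 0.08, with an SD over the 3 arrays of each time of 0.32, 0.10, 0.06, 0.11 and 0.22. Only the 12 h gap exceeded that SD, and it was -0.20, -0.08 and -0.09 on the 3 arrays. Quantile normalization brought it to -0.0031, and without replicate 1 of 12 h it was 0.0131. Calls at 48 h were 5 falls and 1 rise among 19 cytosolic genes and 5 falls and 0 rises among 16 mitochondrial ones. Among all genes, 8.11% were called lower and 6.92% higher at that time.

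**Figure D4:**
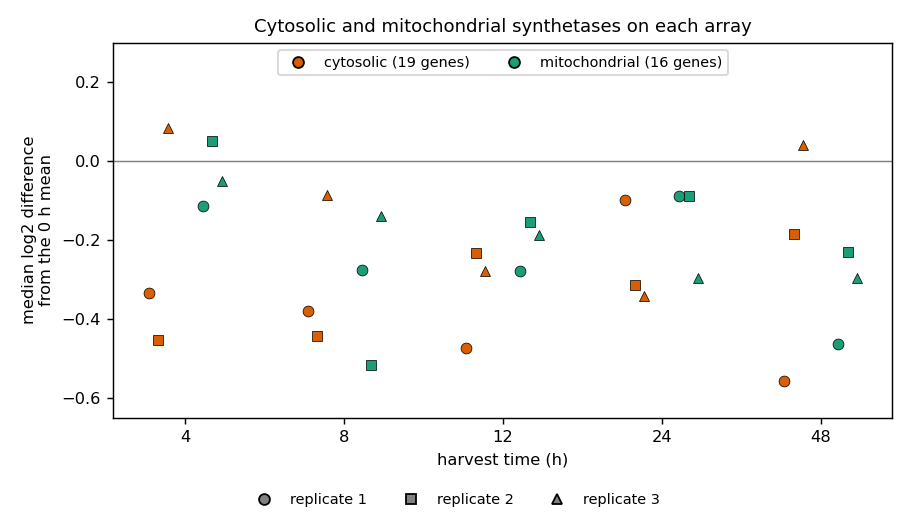
Median log2 difference from the 0 h mean of the 19 cytosolic (orange) and 16 mitochondrial (green) synthetase genes on each array at 4, 8, 12, 24 and 48 h, with symbols for replicates. The colours overlap at every time, and at 12 h the orange point of each replicate lies 0.08 to 0.20 below its green one.

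Pair by pair, the 2 genes for an amino acid differed from 0 h with the same sign in 5 of 13 pairs at 4 h, in 10 at 8 h and at 12 h, in 7 at 24 h and in 8 at 48 h. Counted with both members lower, these were 4, 9, 9, 5 and 6 pairs. For arginine the pair parted late, RARS1 at 0.41 and RARS2 at -0.84 at 48 h, of which RARS2 alone passed the test at that time. For asparagine NARS1 stood at -0.37 and NARS2 at -0.78 at 12 h, and for histidine HARS1 at -1.02 and HARS2 at -0.30 at 48 h.

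Synthetase genes known as ATF4 targets shared a spread between replicates at the early times. Of the 12 on the list, replicate 3 was the highest of the 3 arrays in 12 at 0 h, in 11 at 4 h and in 11 at 8 h, against 32.4%, 34.2% and 37.1% of all genes. In 11 of them, all but EPRS1, it was the highest at all 3 of these times, against 9.84% of all genes. At 12, 24 and 48 h it was the highest in 4, 1 and 5 of the 12, where the shares of all genes were 30.1%, 36.2% and 35.4%. The pattern was noticed in these data and is given as counts.

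SARS1, the seryl enzyme, chosen after its values were seen, shows the spread best. It measured 7.86, 8.71 and 9.94 at 0 h, 7.63, 7.05 and 9.72 at 4 h, and 8.14, 7.31 and 9.12 at 8 h. Replicate 3 thus exceeded both other arrays at each of these times by nearly 1 log2 unit or more. From 12 h on the arrays drew together, at 8.08, 9.14 and 8.56 at 12 h, 9.32, 8.79 and 8.97 at 24 h, and 8.55, 9.08 and 9.61 at 48 h. No difference from 0 h passed the test for SARS1, and the F test adjusted p was 0.701.

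The mean of the 12 genes was 8.93, 9.19 and 9.73 on replicates 1, 2 and 3 of 0 h, 8.70, 8.62 and 9.53 on those of 4 h, and 8.81, 8.56 and 9.20 on those of 8 h. At 24 h the order was turned, with 9.30, 9.26 and 8.97. Among the 7 cytosolic synthetases not on the list, replicate 3 was the highest in 2, 4 and 3 genes at 0, 4 and 8 h, and among the 16 mitochondrial ones in 4, 6 and 6. Of 13 cytosolic elongation and initiation factors, replicate 3 was the highest in 5, 13 and 8, and of 8 tRNA charging partners in 6, 3 and 3. ATF4 and its targets other than synthetases, 26 genes, had replicate 3 highest in 18, 21 and 17 at these times. ATF4 itself measured 8.87, 9.60 and 9.96 at 0 h and 9.23, 8.88 and 10.17 at 4 h, and ASNS, the asparagine synthetase, 8.11, 8.28 and 9.19 at 0 h and 8.15, 8.18 and 9.13 at 4 h. What set replicate 3 apart was not tested. The spread at 0 h enters each comparison of these 12 genes with 0 h, and it differed between them. Its SD ran from 0.09 in IARS1 to 1.04 in SARS1.

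**Figure D5:**
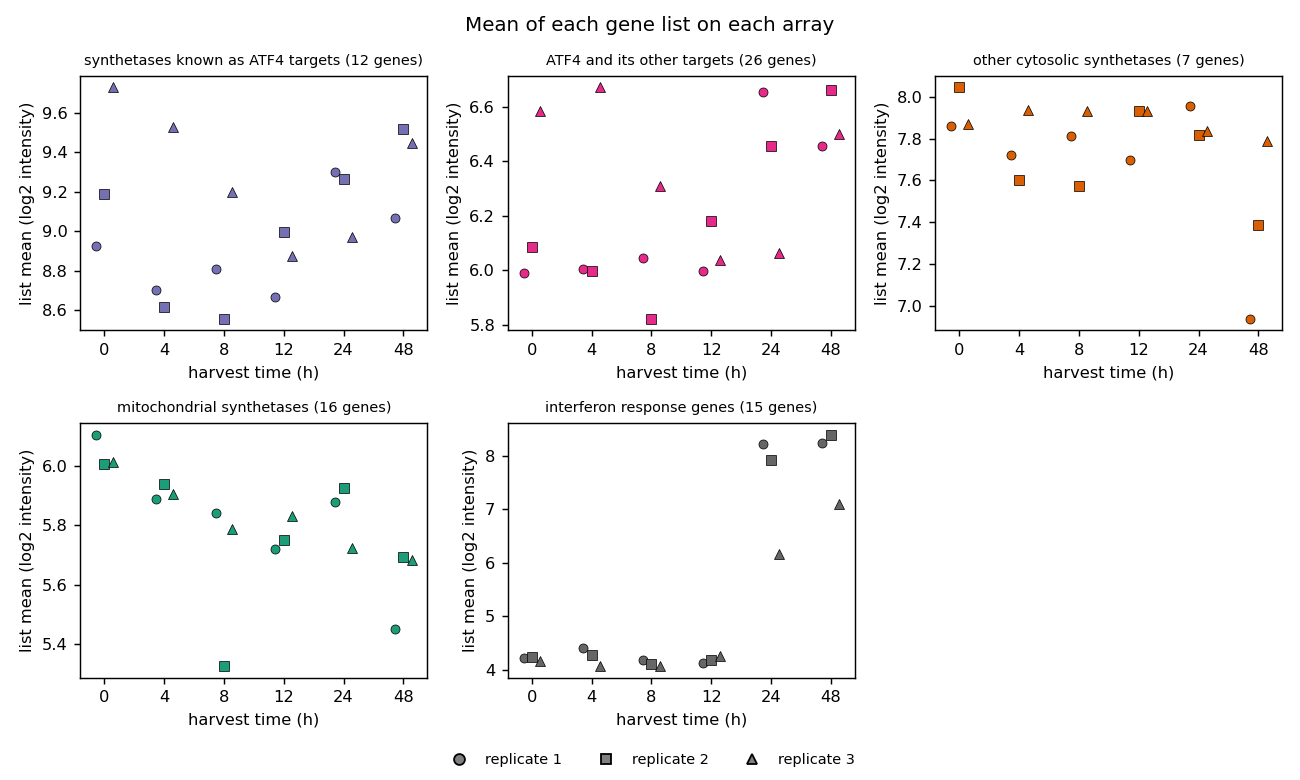
Mean log2 intensity of each of 5 gene lists on each array by harvest time, with symbols for replicates 1, 2 and 3; vertical scales differ between panels and do not start at 0. Triangles (replicate 3) stand above the other 2 symbols at 0, 4 and 8 h for the ATF4-listed synthetases (9.73, 9.53 and 9.20) and for ATF4 and its other targets, and below them at 24 and 48 h for the interferon response genes (6.16 and 7.10).

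The composite site of ATF4 and C/EBP factors is shown for the listed genes because most of their promoters hold it. TGATGNAA, on either strand, occurred in 7 of the 10 listed genes that had a promoter window, in YARS2 alone of the 20 other members with one, and in 4.46% of 27305 genes. Below, 30 bases of each of the 7 are printed 5′ to 3′ on the gene's own strand (RefSeq, GRCh38.p14), with the match in capitals, as the motif itself or as its reverse complement. They lie at chr16:70289675-70289704 (AARS1, minus), chr11:3057407-3057436 (CARS1, minus), chr7:30594834-30594863 (GARS1, plus), chr9:92293692-92293721 (IARS1, minus), chr12:57488053-57488082 (MARS1, plus), chr18:57621804-57621833 (NARS1, minus) and chr5:33440956-33440985 (TARS1, plus).
AARS1: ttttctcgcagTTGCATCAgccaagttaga
CARS1: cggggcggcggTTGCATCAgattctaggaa
GARS1: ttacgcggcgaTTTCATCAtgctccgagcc
IARS1: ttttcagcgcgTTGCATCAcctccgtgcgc
MARS1: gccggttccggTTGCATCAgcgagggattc
NARS1: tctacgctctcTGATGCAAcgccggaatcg
TARS1: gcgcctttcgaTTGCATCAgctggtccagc

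The match began 187 bases before the start in AARS1, 33 in GARS1, 13 in IARS1, 4 in MARS1 and 2 in CARS1, and 3 and 15 bases after it in TARS1 and NARS1. Each distance is to the start whose window held the match. In GARS1 and TARS1 that start lies downstream of the first base of the gene (30594735 and 33440696). SARS1, EPRS1 and WARS1 had a window without this motif, and LARS1 and YARS1 had no window. The E-box CACGTG, bound by MYC, was found in CARS2, EARS2, IARS1 and MARS2 and in 8.77% of all genes.

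Other genes of tRNA charging and translation moved as follows. Of 8 measured scaffolds and partners, 0 rose and 3 fell at 48 h, where 8.11% of all genes fell, with a list median of -0.39. XPOT, the exporter of tRNA from the nucleus, measured 8.23, 8.65 and 8.50 at 12 h, against 9.44, 9.34 and 9.86 at 0 h, and fell at 8, 12, 24 and 48 h, by 1.09 at its lowest (12 h, limma adjusted p = 0.000597). PSTK, the kinase that acts on seryl-tRNA in selenocysteine synthesis, fell at 8, 12 and 24 h, by 1.01 at 8 h (limma adjusted p = 0.00243). AIMP1, a scaffold of the complex, fell at 48 h by 0.67 (limma adjusted p = 0.00792) and DTD2, which removes wrongly attached amino acids from tRNA, fell by 1.06 (limma adjusted p = 0.0115).

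Of 13 mitochondrial translation factors, 1 rose and 5 fell at 48 h, against 6.92% and 8.11% of all genes. MTIF2, the initiation factor, fell by 1.17 at 8 h and GATB, a subunit of the enzyme that makes glutaminyl-tRNA in mitochondria, by 1.51 at 48 h (limma adjusted p = 0.00139 and 0.000117). MRRF, which recycles mitochondrial ribosomes, fell at all 5 times, and MTRF1L, a release factor, rose at all 5, by 0.75 at 8 h (limma adjusted p = 0.00105). Of 13 cytosolic elongation and initiation factors, 2 fell at 48 h (8.11% of all genes), EEF1B2, an exchange factor of elongation factor 1, and EIF2S2, the beta subunit of eIF2. EEF1B2 fell by 1.78 and EIF2S2 fell by 0.60 (limma adjusted p = 0.000124 and 0.0176). EIF2S3 and EIF3A stood at -0.37 and -0.24 at 48 h and passed no test.

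On the stress side, EIF2AK2, the interferon-induced eIF2 kinase PKR, rose by 1.86 at 24 h and by 2.0 at 48 h (limma adjusted p = 9.93e-06 and 2.39e-06). EIF2AK4, the kinase GCN2 that senses uncharged tRNA, measured 5.98, 6.75 and 6.72 at 24 h, against 5.54, 5.51 and 6.04 at 0 h (difference 0.79, limma adjusted p = 0.0453), and was not called at 48 h. EIF2AK1, the heme-regulated kinase, fell by 0.78 at 48 h (limma adjusted p = 0.0142), so of 5 genes in this list 1 rose and 1 fell at that time. Of the 26 genes of ATF4 and its other targets, 3 rose and 1 fell at 48 h, against 6.92% and 8.11% of all genes. DDIT3, a stress-induced transcription factor, rose by 2.45 and ASNS by 1.32 (limma adjusted p = 0.00315 and 0.0135), and ALDH18A1, an enzyme of proline synthesis, fell by 1.70 (limma adjusted p = 3.01e-05). DDIT3 measured 8.41, 9.06 and 7.86 at 48 h, against 5.13, 5.12 and 7.74 at 0 h. ASNS measured 10.19, 10.12 and 9.25 at 48 h, against 8.11, 8.28 and 9.19 at 0 h. Both rises were thus carried by replicates 1 and 2, with replicate 3 of 48 h close above replicate 3 of 0 h. At the same time 1 of the 12 ATF4-listed synthetases rose, WARS1, and 2 fell, EPRS1 and IARS1, which is 8.33% and 16.7% of the list, against the 6.92% and 8.11% of all genes.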

How the data were processed

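RNA of Raji cells harvested at 6 times was measured on 18 arrays. Per the labels, a column kit gave total RNA, and 200 ng of it was turned into biotinylated cDNA. The deposited values are log2 intensities, 1 per probe set, the base being inferred from a highest value of 12.93. The software, background correction and normalization used by the authors are not given in the sources used here. No further normalization was applied. Of 33297 probe sets, 19460 named exactly 1 gene, 1754 several and 12083 were not named here. Each of the 18417 genes was represented by its 1-gene probe set of highest mean.

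The program limma 3.58.1 (R 4.3.3) fitted a model of harvest time alone to the 18 arrays (12 residual and 5.58 prior degrees of freedom), with two-sided moderated tests of each later time against 0 h and of consecutive times, and an F test over the 5 differences from 0 h. Benjamini-Hochberg adjustment ran over all genes, with a threshold of 0.05. Tested on simulated data for 24 h against 0 h (18417 genes, 200 changed), the fit recovered 66% of genes changed by 1 log2 unit and 95% of those changed by 2, with 7 false calls. For arrays, their number limits the precision. Tables and plots used Python 3.11.15, pandas 2.3.3 and matplotlib 3.10.9.

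Every member was given its call. Single-array values were given for the 4 cytosolic and 4 mitochondrial genes of smallest F test p (WARS1 among them) and, chosen after their values were seen, for LARS1, QARS1, KARS1, FARS2, FARSA, HARS1 and SARS1. From each other list up to 4 genes of smallest F test p were named, with ATF4, ASNS, IDO1, MX1 and IRF7 chosen after their values were seen. The members and lists were chosen with earlier results of these data known. Replicate numbers are not said by the labels to mark shared cultures, so the numbers were not taken as pairs in the main model. Deviations from the group means correlated above 0.1 in 20 of 45 same-numbered pairs of arrays. The median correlation was 0.08 for these pairs and -0.06 for differently numbered ones, so a model with a replicate block was run as an alternative. The alternatives are given in the closing section.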

Additional observations from a re-analysis of the deposited data

How the results depend on the processing

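The direction of every named member call against 0 h was kept under the alternatives run. The sign of the cytosolic minus mitochondrial gap was not kept at 8, 12 and 24 h. The alternatives were quantile normalization, median centring, leaving out the dimmest 25% of genes, the mean of all probe sets, the arrays of the compared groups alone, array weights, the interquartile range as a covariate, an intensity trend, a replicate block, and leaving out single arrays. Leaving out replicate 2 of 8 h together with replicate 3 of 24 h was chosen after seeing the data. Of 23 member calls against 0 h, 8 held in all of them: WARS2 at 8, 12 and 48 h, LARS1 at 12 h, and FARS2, FARSB, LARS2 and QARS1 at 48 h. On the arrays of the compared groups alone 1 gene was called at 8 h, 1 at 24 h and 7 at 48 h, in place of 4, 4 and 11. With array weights 1 gene was called at 4 h, 3 for 8 h against 4 h, 3 for 24 h against 12 h and 1 for 48 h against 24 h, each in place of 0. The interquartile range as a covariate gave 1 call at 4 h, and median centring 1 for 48 h against 24 h. Without replicate 2 of 8 h and replicate 3 of 24 h together, 1 gene was called at 4 h, 2 at 8 h and 1 for 24 h against 12 h. Leaving out single arrays gave 0 to 1 calls at 4 h, 1 to 4 at 8 h, 2 to 4 at 12 h, 1 to 3 at 24 h, 6 to 11 at 48 h and 8 to 14 in the F test, and 0 to 1 for 24 h against 12 h and 0 to 2 for 48 h against 24 h. The cytosolic minus mitochondrial gap after quantile normalization was -0.0031 (12 h), 0.0222 (24 h) and 0.2325 (48 h). Without single arrays it ran between -0.39 and -0.13 at 4 h, -0.11 and 0.0727 at 8 h, -0.27 and 0.0131 at 12 h, -0.23 and 0.11 at 24 h, and 0.0046 and 0.2262 at 48 h. With the replicate block 4, 5, 4 and 10 genes were called at 8, 12, 24 and 48 h, 13 in the F test, and 1 for 48 h against 24 h in place of 0. It ended the 48 h calls of EPRS1 and YARS2 (limma adjusted p = 0.0573 and 0.0616). The causes were not tested. In the same-number check, 15 of 18 arrays were closest to an array of their own number, a hint from the data and not from the design.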
